A study of Mus musculus with 8 samples.

Results

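The genes described here encode the cell junctions of the blood-testis barrier, measured by microarray in TTE3 cells exposed to bisphenol A (BPA). They are 10 genes in 4 classes: the tight junction genes Tjp1, F11r and Ocln, the adherens junction genes Cdh2, Ctnnb1, Ctnna1 and Ctnnd1, the nectin genes Nectin2 and Nectin3, and the gap junction gene Gja1. Every probe set annotated with exactly 1 of these symbols was taken, which gave 26 of the 22690 probe sets on the array. TTE3 is a Sertoli cell line from transgenic mice, and all groups share its transgene, the large T-antigen of simian virus 40 in a temperature-sensitive form. The cells were exposed to 0.2 mM BPA, a plastics monomer with weak estrogenic activity, for 0, 3, 6 or 12 h, with 2 arrays at each time and 8 in all. The question is which junction genes changed over these hours. Nothing in the labels ties the 2 arrays of a time to separate cultures. The p-values therefore rest on the spread between these samples alone, and that spread may be technical. Cells kept without BPA for 3, 6 or 12 h were not analysed here, so BPA and time in culture cannot be told apart in any change below.

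Sertoli cells line the seminiferous tubule and close it off with a band of junctions near its base, the blood-testis barrier, which shields the later germ cells. In this band tight junctions, adherens junctions and gap junctions lie side by side, tied to bundles of actin. Transmembrane proteins join the neighbouring cells (occludin and JAM-A in tight junctions, N-cadherin and nectins in adherens junctions, connexins in gap junctions), and adaptor proteins such as ZO-1 and the catenins tie them to the cytoskeleton. The barrier opens and closes again as germ cells move through it, and cytokines, kinases and androgen are known to regulate it.

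By 12 h, F11r, which encodes the tight junction adhesion molecule JAM-A, had fallen to 0.442 times its 0 h level on the scale of the test. This was by 1 of 2 probe sets, and the other, which was dim, was not called. Nectin2, by both of its probe sets, and the p120-catenin gene Ctnnd1 had also fallen, and these calls held under all alternative settings run. The N-cadherin gene Cdh2 was lower by 1 of 2 probe sets and Nectin3 by 1 of 3 tested. Tjp1, which encodes the scaffold protein ZO-1, rose. The calls of Cdh2, Nectin3 and Tjp1 were lost when some single arrays were left out. No probe set of the beta-catenin gene Ctnnb1, of the alpha-catenin gene Ctnna1 or of the connexin 43 gene Gja1 passed the test at 3, 6 or 12 h.

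The sequences just before the annotated starts of 4 of these genes are shown, because F11r and Nectin2 fell together, Tjp1 rose and Gja1 was not called. Each runs 5′ to 3′ on the gene's strand over the 250 bases before a RefSeq start in build GRCm38.p6, and capitals mark the E-box CAGGTG or its reverse complement CACCTG, bound by the Snail and ZEB repressors, and the AP-1 motif TGANTCA.
F11r, chr1:171437311-171437560, plus strand: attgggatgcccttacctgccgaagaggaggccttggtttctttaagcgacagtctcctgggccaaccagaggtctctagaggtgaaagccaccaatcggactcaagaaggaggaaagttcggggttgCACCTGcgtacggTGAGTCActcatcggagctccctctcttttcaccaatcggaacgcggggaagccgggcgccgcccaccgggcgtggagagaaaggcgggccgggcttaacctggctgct
Nectin2, chr7:19749574-19749823, minus strand: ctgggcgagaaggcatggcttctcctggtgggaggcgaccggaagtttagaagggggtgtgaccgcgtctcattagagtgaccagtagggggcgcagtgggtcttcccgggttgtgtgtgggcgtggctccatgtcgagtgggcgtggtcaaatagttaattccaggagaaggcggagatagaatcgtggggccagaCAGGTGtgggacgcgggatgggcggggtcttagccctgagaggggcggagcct
Tjp1, chr7:65371245-65371494, minus strand: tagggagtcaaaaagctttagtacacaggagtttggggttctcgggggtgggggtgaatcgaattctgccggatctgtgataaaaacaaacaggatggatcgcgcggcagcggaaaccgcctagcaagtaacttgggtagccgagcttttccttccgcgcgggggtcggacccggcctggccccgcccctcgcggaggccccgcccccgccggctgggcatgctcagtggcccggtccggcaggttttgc
Gja1, chr10:56377050-56377299, plus strand: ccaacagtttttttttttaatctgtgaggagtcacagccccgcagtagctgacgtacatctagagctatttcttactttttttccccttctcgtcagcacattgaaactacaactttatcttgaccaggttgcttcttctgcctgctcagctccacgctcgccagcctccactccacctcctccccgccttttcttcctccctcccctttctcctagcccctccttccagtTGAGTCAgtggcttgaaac

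In the F11r sequence the E-box ended 117 bases and the AP-1 motif 103 bases before the start. The E-box of Nectin2 ended 48 bases before its start, and the AP-1 motif of Gja1 ended 13 bases before its start. The window of Tjp1 held neither motif. Over all 32851 promoter windows of the same length, read on both strands, 17.2% held the E-box and 6.75% the AP-1 motif, so a match describes the letters and shows no binding. Of the 10 genes, 8 had a promoter entry, and Cdh2 and Ctnna1 had none. Among the others Ocln held the E-box before 1 of its 2 listed starts, and Ctnnb1, Ctnnd1 and Nectin3 held neither motif. A cAMP response element, TGACGTCA (1.55% of all windows), was in none of the 8 genes. The GC box GGGCGG or CCGCCC (32.7% of all windows) was in those of F11r, Nectin2, Tjp1, Ctnnb1, Ocln and Nectin3.

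Signals are the authors' probe set values on a linear scale, and changes are differences of log2(signal + 7.9) with the standard error (SE) of a limma model over all 8 arrays. The offset of 7.9 is the 10th percentile of all values and makes changes of dim probe sets look smaller than they are. The dimmest 30% of probe sets by mean log2 signal were set aside, which left 15838 to test, and a probe set was called at a Benjamini-Hochberg adjusted p under 0.05. Of the 26 junction probe sets 22 passed this filter: 3 of 4 for tight junctions, 8 of 9 for adherens junctions, 5 of 7 for nectins and 6 of 6 for Gja1. The 4 others were the only probe set of Ocln, 1 of Ctnna1 and 2 of Nectin3, and are given as values with no test. Arrays that do not overlap those of 0 h were common. At 3, 6 and 12 h, both arrays lay above both 0 h arrays in 32%, 33.3% and 35.6% of all probe sets tested. They lay below both in 24.2%, 26.9% and 32.1%.

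The authors had scaled every array to the same trimmed mean signal (500.16 to 500.18), and replicates correlated at 0.963 to 0.976 across probe sets. Of all probe sets tested, the share of calls that were higher was 67.3%, 59.5% and 50.9% at 3, 6 and 12 h against 0 h. With all arrays brought to 1 median it was 39%, 42% and 49.8%, and the median change of all probe sets moved to -0.09 at 3 h and -0.07 at 6 h, against 0.04 at both times as deposited. Of 17 Sertoli cell markers on the array 11 passed the filter. The summed signal of the 17 was 21510 to 22090 at 12 h, against 23780 to 23900 at 0 h, mostly from Vim and Clu. Vim averaged 15370 at 12 h and 13280 at 0 h. Clu averaged 3409 at 12 h and 7650 at 0 h, and Sox9 134.8 at 12 h and 43.6 at 0 h. Inhbb was also called lower (-0.99) and Gata4 higher (0.50) at 12 h, while Amh and the barrier claudin gene Cldn11 lay below the filter. Genes used as peritubular and fibroblast markers also gave signal. The summed signal of 8 such genes was 4553 to 5353 at 12 h, against 9721 to 9760 at 0 h, mostly from Dcn and Col1a1. At 0 h Col1a2 averaged 84, Des 81.3, Acta2 66.95 and Pdgfra 33, and the smooth muscle genes Myh11 and Cnn1 lay below the filter. The 10 germ cell markers summed to 411 to 498.5 at 12 h, against 703.2 to 749.8 at 0 h, mostly from Kit. All samples are of 1 cell line, and these sums do not show that other cell types were present. The part of these cell markers in the junction results was not tested, and in bulk RNA fewer cells of a type cannot be told apart from less RNA per cell.

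**Figure D1:**
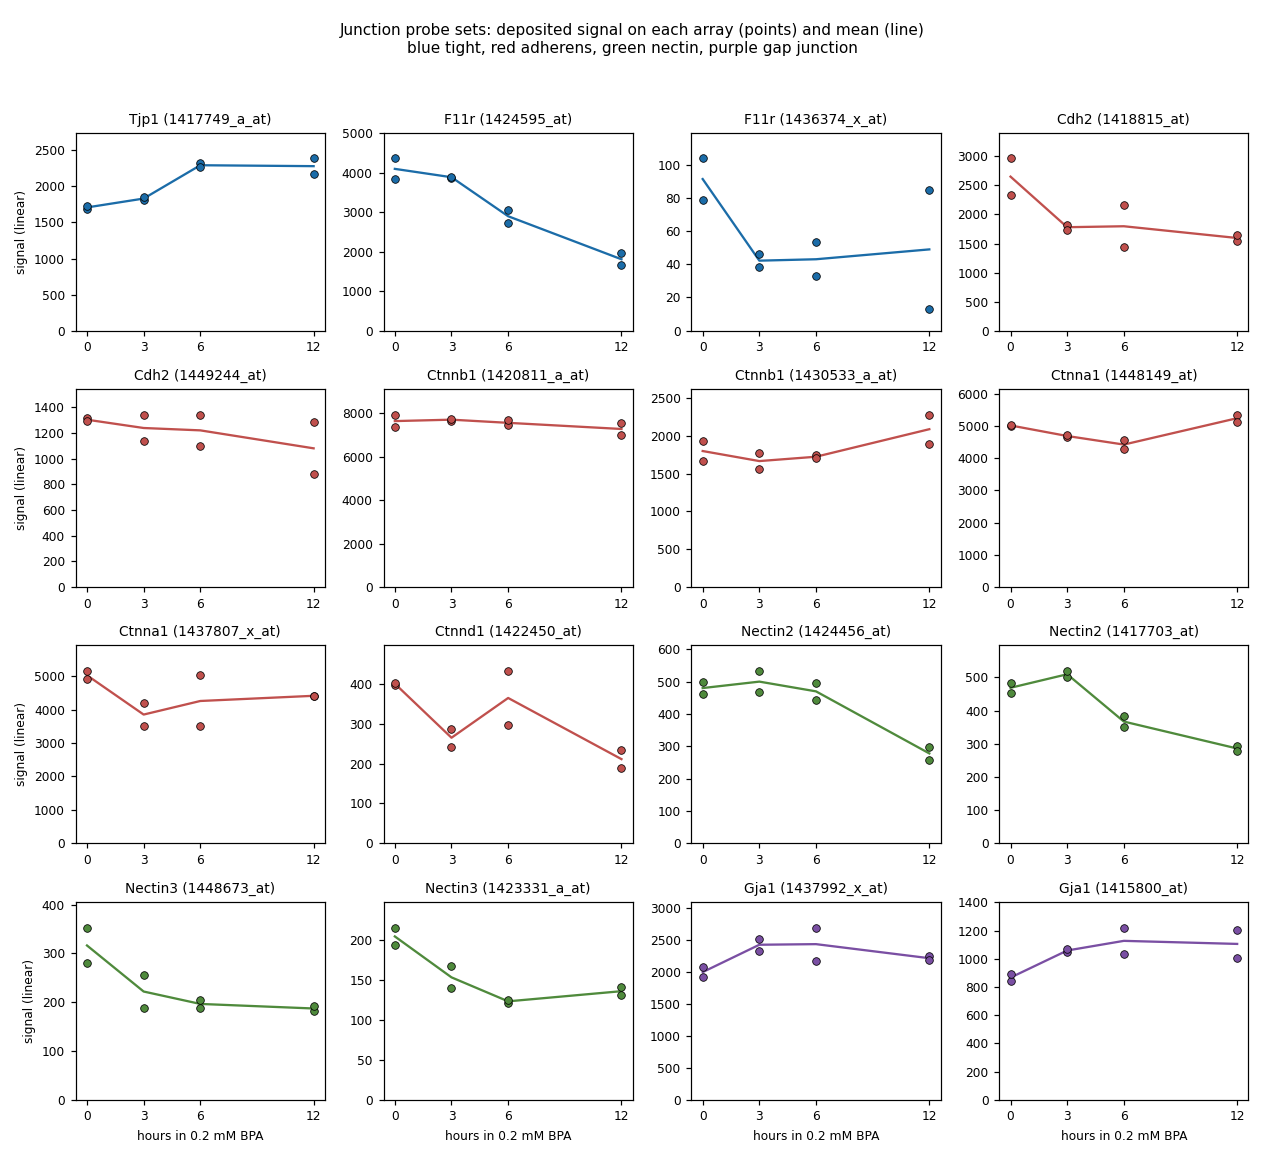
Deposited signal (linear, y axis from 0) of the 2 brightest tested probe sets of each junction gene against hours in 0.2 mM BPA; points are single arrays, lines join the means of 2 arrays, and colour gives the junction class. F11r (1424595_at), Nectin2 and Nectin3 end below their 0 h arrays, Tjp1 ends above them, and F11r (1436374_x_at) and Ctnnb1 overlap them.

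Among the tight junction genes, F11r and Tjp1 moved in opposite directions. JAM-A is an immunoglobulin-fold adhesion protein that binds its like on the next cell. Its main probe set, 1424595_at, gave 4365.5 and 3835.5 at 0 h, 3878.3 and 3898.6 at 3 h, 3069.0 and 2729.9 at 6 h, and 1956.2 and 1660.4 at 12 h. The 3 h arrays lay within the range of the 0 h arrays, while the 6 h arrays lay below it and the 12 h arrays lower again. F11r averaged 1808 ± 209 at 12 h and 4100 ± 375 at 0 h (SD, n = 2 each). It fell by 1.18 ± 0.12 on the log2 scale at 12 h (limma adjusted p = 2.32e-05) and by 0.50 ± 0.12 at 6 h (adjusted p = 0.0122). At 3 h the change was -0.07 ± 0.12 (adjusted p = 0.782). The 12 h call held under all 19 alternatives run for it, with changes between -1.30 and -1.06. The 6 h call did not pass without replicate 1 at 0 h (adjusted p = 0.127), without replicate 2 at 6 h (0.0544) or when limma's variance prior ignored intensity (0.065), nor did the mean of both F11r probe sets (-0.74, 0.0525).

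The other F11r probe set, 1436374_x_at, was dim and uneven. It gave 12.9 and 85.1 at 12 h, against 79.0 and 103.9 at 0 h, so the groups overlapped. Its change at 12 h was -1.16 ± 0.62 (limma adjusted p = 0.179), close in size to that of the main probe set but with an error that spans no change. Without replicate 2 at 12 h it was -2.25 (adjusted p = 0.0141), so 1 array decides this probe set. As an _x_at probe set it can also bind other transcripts.

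ZO-1, the product of Tjp1, is a scaffold that ties occludin, claudins and JAM-A to actin. Its probe set, 1417749_a_at, gave 1683.5 and 1733.8 at 0 h, 1805.5 and 1858.5 at 3 h, 2322.2 and 2266.2 at 6 h, and 2388.9 and 2174.0 at 12 h. All 6 exposed arrays lay above both 0 h arrays, and the 6 h and 12 h arrays covered the same range. Tjp1 averaged 2281 ± 152 at 12 h and 1709 ± 35.6 at 0 h (SD, n = 2 each). It rose by 0.42 ± 0.11 at 6 h (limma adjusted p = 0.0139) and by 0.41 ± 0.11 at 12 h (adjusted p = 0.00998), and its change at 3 h was 0.10 ± 0.11 (adjusted p = 0.636). The 12 h call was lost without replicate 1 or 2 at 0 h (adjusted p = 0.0738 and 0.0517) or replicate 1 at 12 h (0.0767). Scaling every array to 1 median also ended the 6 h call (0.31, adjusted p = 0.0656), as did fits without the intensity trend (0.0572) and fits without replicate 1 or 2 at 0 h (0.1 and 0.0724).

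The difference between these genes can be read within each array, where scaling has little part. The log2 value of Tjp1 minus that of F11r was -1.37 and -1.14 at 0 h, -1.10 and -1.07 at 3 h, -0.40 and -0.27 at 6 h, and 0.29 and 0.39 at 12 h. It averaged 0.34 at 12 h and -1.26 at 0 h, a difference of 1.59, with no overlap between the arrays of these times. An exact two-sided permutation test gave p = 0.333, the smallest that 2 arrays against 2 allow, and the pair was chosen after its values were seen.

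Occludin, a transmembrane protein of the tight junction strands, was read by 1 probe set near the bottom of the range. Ocln gave 26.6 and 6.5 at 0 h, 40.6 and 28.3 at 3 h, 22.0 and 19.1 at 6 h, and 37.1 and 25.6 at 12 h. The 0 h arrays were far apart. Both 3 h arrays lay above them, while the 6 h and 12 h arrays overlapped them, and Ocln was below the filter and not tested.

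Among the adherens junction genes, Ctnnd1 and 1 of 2 Cdh2 probe sets fell and the other catenin genes were not called. N-cadherin, encoded by Cdh2, is the main classical cadherin between Sertoli cells. Probe set 1418815_at gave 2338.4 and 2966.1 at 0 h, 1823.1 and 1738.7 at 3 h, 1431.5 and 2163.4 at 6 h, and 1549.5 and 1640.4 at 12 h. All 6 exposed arrays lay below both 0 h arrays, and the 6 h arrays differed from each other more than the 3 h and 12 h arrays did. Cdh2 averaged 1595 ± 64.3 at 12 h and 2652 ± 444 at 0 h (SD, n = 2 each) by this probe set. It fell by 0.72 ± 0.18 at 12 h (limma adjusted p = 0.00743) and by 0.58 ± 0.18 at 6 h (adjusted p = 0.0338). At 3 h the change was -0.56 ± 0.18 (adjusted p = 0.0706), and it passed after scaling to a common median (adjusted p = 0.0228), with only the times compared in the fit (0.0126), with 1 probe set per gene (0.0464) and without either 6 h array (0.0132 each). Without replicate 2 at 0 h the 12 h call was lost (-0.55, adjusted p = 0.0898), as it was, narrowly, without the intensity trend (0.0509). The 6 h change was -0.28 without replicate 1 at 6 h (adjusted p = 0.241) and -0.41 without replicate 2 at 0 h (0.261), and 5 other alternatives also ended that call (0.0573 to 0.128).

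The other Cdh2 probe set, 1449244_at, gave 878.0 and 1284.5 at 12 h, against 1316.7 and 1292.5 at 0 h. The higher 12 h array was close to the 0 h arrays. The change was -0.29 ± 0.17 (limma adjusted p = 0.221; 95% interval -0.67 to 0.08), and it was -0.57 without replicate 2 at 12 h (adjusted p = 0.0293). The mean of both Cdh2 probe sets gave -0.51 ± 0.15 at 12 h (adjusted p = 0.0212).

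p120-catenin, encoded by Ctnnd1, binds the tail of cadherins and holds them at the membrane. Its probe set gave 397.4 and 403.2 at 0 h, 287.5 and 242.0 at 3 h, 297.2 and 431.7 at 6 h, and 233.8 and 188.4 at 12 h. Both 3 h and both 12 h arrays lay below the 0 h arrays, while the 6 h arrays fell on either side of them. Ctnnd1 averaged 211 ± 32.1 at 12 h and 400.3 ± 4.10 at 0 h (SD, n = 2 each). It fell by 0.91 ± 0.20 at 12 h (limma adjusted p = 0.00459), a call that held under all 19 alternatives run. The changes at 3 h and 6 h were -0.59 ± 0.20 (adjusted p = 0.0993) and -0.16 ± 0.20 (adjusted p = 0.64). The 3 h change of Ctnnd1 passed after scaling to a common median (-0.72, adjusted p = 0.0437) and with only the times compared in the fit (0.033).

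Ctnnb1 encodes beta-catenin, which links cadherins to alpha-catenin and also carries the Wnt signal to the nucleus. Its brightest probe set, 1420811_a_at, gave 7024.1 and 7547.6 at 12 h, against 7940.8 and 7358.8 at 0 h, and these ranges overlapped. The change at 12 h was -0.07 ± 0.10 (limma adjusted p = 0.653), with a 95% interval of -0.30 to 0.16. The 2 other probe sets of Ctnnb1 had changes of 0.21 ± 0.13 and -0.03 ± 0.11 at 12 h. None of the 3 was called at 3, 6 or 12 h.

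Ctnna1 encodes alpha-catenin, the link from beta-catenin to actin. Probe set 1448149_at gave 5352.2 and 5140.8 at 12 h, against 5003.8 and 5038.4 at 0 h. The 12 h arrays were slightly higher, by 0.06 ± 0.10 (limma adjusted p = 0.678; 95% interval -0.16 to 0.28). Probe set 1437807_x_at, which can also bind other transcripts, gave 4407.2 and 4414.6 at 12 h, against 5147.9 and 4900.9 at 0 h. Its change was -0.19 ± 0.16 (adjusted p = 0.399). At 3 h it gave -0.39 ± 0.16 (adjusted p = 0.158), and it passed after scaling to a common median (-0.52, adjusted p = 0.0496). The third probe set, 1437275_at, stayed at 22.4 or below on every array and was not tested.

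Nectin2 fell by both of its probe sets at 12 h, and Nectin3 by 1 of 3 tested. Nectins are immunoglobulin-like adhesion proteins that bind afadin, and in mouse testis nectin-2 on Sertoli cells pairs with nectin-3 on spermatids. For Nectin2, probe set 1417703_at gave 483.9 and 453.6 at 0 h, 500.2 and 518.9 at 3 h, 351.6 and 382.3 at 6 h, and 292.1 and 279.4 at 12 h. The 3 h arrays were the highest and the 12 h arrays the lowest, with no overlap between times. Nectin2 averaged 285.8 ± 8.98 at 12 h and 468.8 ± 21.4 at 0 h (SD, n = 2 each) by this probe set. It fell by 0.70 ± 0.14 at 12 h (limma adjusted p = 0.00253).

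The other Nectin2 probe set, 1424456_at, gave 299.2 and 256.8 at 12 h, against 461.0 and 499.2 at 0 h. The groups did not overlap, and the fall was 0.77 ± 0.15 (limma adjusted p = 0.00206). Both calls at 12 h held under all alternatives run for them. At 6 h the probe sets parted: 1417703_at had a change of -0.35 ± 0.14 (adjusted p = 0.106), which passed after quantile normalization (0.0458) and after scaling to a common median (0.0397), and 1424456_at had one of -0.03 ± 0.15 (adjusted p = 0.913).

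Nectin3 was read by 5 probe sets. The brightest, 1448673_at, gave 279.6 and 353.3 at 0 h, 187.8 and 256.1 at 3 h, 188.8 and 204.2 at 6 h, and 181.9 and 192.4 at 12 h. All 6 exposed arrays lay below both 0 h arrays. It fell by 0.66 ± 0.21 at 6 h (limma adjusted p = 0.0389) and by 0.73 ± 0.21 at 12 h (adjusted p = 0.0171). Probe set 1423331_a_at gave 121.0 and 125.1 at 6 h and 141.1 and 130.4 at 12 h, against 193.1 and 215.4 at 0 h. It fell by 0.69 ± 0.22 at 6 h (adjusted p = 0.0393), and its change at 12 h was -0.56 ± 0.22 (adjusted p = 0.0673). The dim probe set 1417319_at had a change of -0.91 ± 0.45 at 12 h (adjusted p = 0.148), and the 2 probe sets below the filter stayed at 45.1 or lower on every array.

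The calls of Nectin3 rested on few arrays. That of 1448673_at at 12 h was lost without replicate 2 at 0 h (adjusted p = 0.158) or replicate 1 at 12 h (0.0753), and the mean of all 5 probe sets was -0.62 ± 0.35 (adjusted p = 0.206). Both calls at 6 h were lost without any 1 of the 0 h or 6 h arrays (adjusted p = 0.0654 to 0.273 for 1448673_at and 0.0857 to 0.213 for 1423331_a_at) and without a filter (0.08 and 0.0941). That of 1448673_at was also lost without the intensity trend (0.0628), and that of 1423331_a_at without replicate 2 at 3 h (0.0501).

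Connexin 43, encoded by Gja1, forms the main gap junction channels between Sertoli cells and germ cells, and in mice its loss from Sertoli cells blocks spermatogenesis. Gja1 was read by 6 probe sets, which share their transcript and are not independent. Those named _x_at (1437992, 1438650, 1438945 and 1438973) can also bind other transcripts. Probe set 1415800_at gave 844.1 and 888.9 at 0 h, 1049.1 and 1068.1 at 3 h, 1032.5 and 1221.8 at 6 h, and 1007.1 and 1203.7 at 12 h. All 6 exposed arrays lay above both 0 h arrays. The changes were 0.29 ± 0.13, 0.37 ± 0.13 and 0.34 ± 0.13 at 3, 6 and 12 h (limma adjusted p = 0.224, 0.0664 and 0.0663). The 12 h change of this probe set passed on dropping either 6 h array (adjusted p = 0.0447 and 0.0452) or the first 12 h array (0.0464). Probe set 1437992_x_at gave 2237.0 and 2182.0 at 12 h, against 2066.7 and 1917.8 at 0 h, a change of 0.15 ± 0.12 (adjusted p = 0.393).

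Over the 6 Gja1 probe sets the changes ranged from 0.14 to 0.50 at 3 h, from 0.15 to 0.50 at 6 h and from -0.02 to 0.63 at 12 h. None passed the test as reported. The mean of the 6, fitted as 1 gene, gave 0.34 ± 0.11 at 6 h (adjusted p = 0.0479) and 0.22 ± 0.11 at 12 h (adjusted p = 0.149). The Gja1 probe sets differed in which 6 h array was the higher one. Replicate 2 was higher for 1415800_at, 1437992_x_at, 1438650_x_at and 1438945_x_at. Their 6 h changes without replicate 1 were 0.49, 0.43, 0.64 and 0.745. Replicate 1 was higher for 1438973_x_at (250.5, against 136), whose 6 h change without replicate 2 was 0.92.

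**Figure D2:**
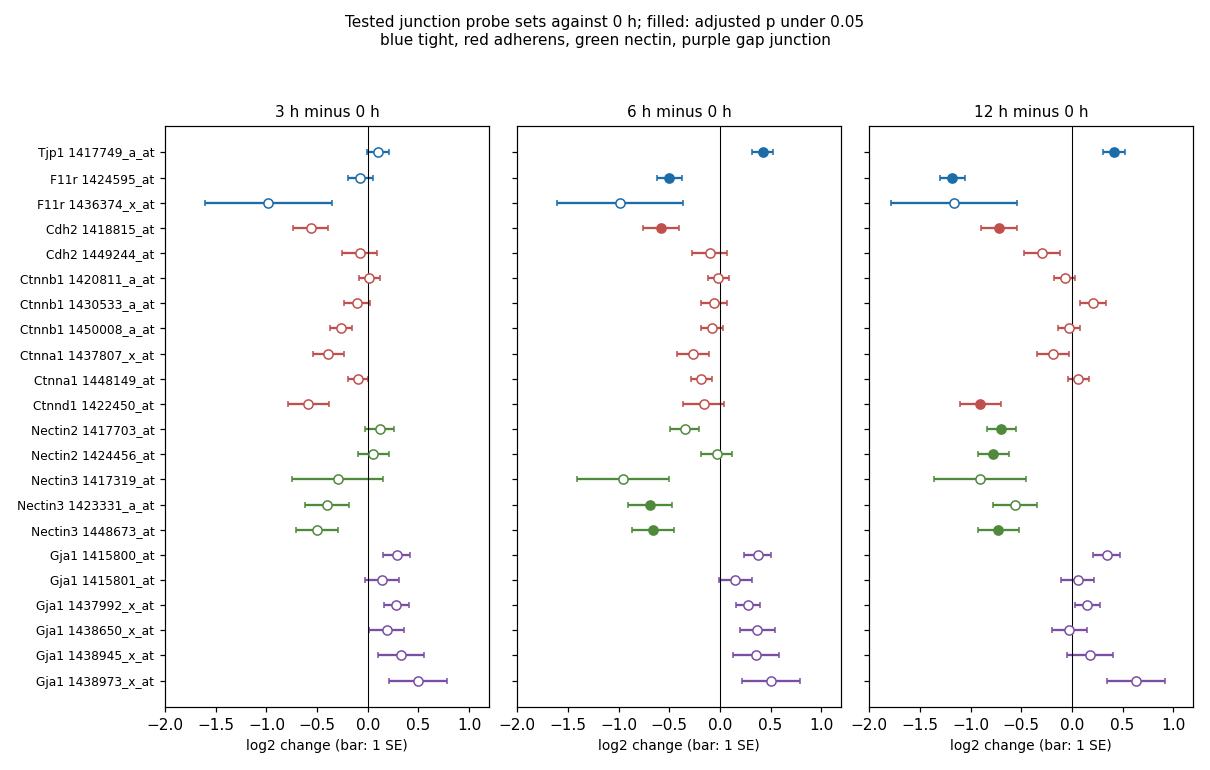
Log2 change against 0 h (x axis; bars are 1 SE) of the 22 tested junction probe sets at 3, 6 and 12 h; filled points have a limma adjusted p under 0.05 and colour gives the class. No point is filled at 3 h, and at 12 h 6 filled points lie left of 0 and 1, Tjp1, lies right of it.

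Counted over the 22 tested probe sets, 0 were called at 3 h by limma, against 8.78% of all probe sets tested (5.91% higher, 2.87% lower). An unadjusted limma p under 0.05 at 3 h was reached by 6 of the 22, against 3612 of all 15838. At 6 h 1 was higher and 4 were lower, or 22.7% called against 21.8% of all (13% higher, 8.84% lower). At 12 h 1 was higher and 6 were lower, or 31.8% called against 33.4% of all. Called shares of this size were near those of the whole array. By direction, 4.55% of the junction probe sets were higher at 12 h against 17% of all, and 27.3% were lower against 16.4% of all, counts of 1 and 6 that share genes. Between 6 h and 3 h 0 were called by limma, against 0.972% of all. For this step 3 of the 22 had an unadjusted limma p under 0.05, against 2019 of all 15838. Between 12 h and 6 h 2 were lower, 1 of the 2 probe sets each of F11r and Nectin2, against 2.97% of all called and 2.41% lower. By the F test over all times 6 of 22 were called, or 27.3% against 29.3% of all.

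By class, the median change at 12 h was -1.16 over the 3 tight junction probe sets, -0.13 over the 8 of adherens junctions, -0.73 over the 5 of nectins and 0.17 over the 6 of Gja1, beside 0.03 over all probe sets tested. The tight junction median hides 1 rise and 1 fall, since 2 of its 3 values come from F11r. In the adherens class 2 of 8 were lower and none higher, in the nectin class 3 of 5 were lower and none higher, and in the gap junction class 0 of 6 were called. Differences between the classes were not tested. Within the adherens class p120-catenin and 1 of 2 cadherin probe sets were lower. The other cadherin probe set had a change of -0.295 and was not called. All 5 tested probe sets of alpha- and beta-catenin had changes between -0.19 and 0.21.

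The other genes of each junction type, read by 1 probe set a gene, give the setting of these values. By that measure 19.1% of 8985 genes tested were higher and 16.2% lower at 12 h, with a median change of 0.06. Of 17 other tight junction genes tested, 3 were lower at 12 h and none higher. Mpdz, a scaffold with many PDZ domains, fell at 6 h (-0.49) and 12 h (-0.38, limma adjusted p = 0.0419), a call lost under 7 of 18 alternatives, either 0 h array left out among them (adjusted p up to 0.246). Chosen after their values were seen, the coxsackievirus and adenovirus receptor gene Cxadr (-0.63) and the scaffold gene Magi3 (-0.49) were the others, and the call of Magi3 was lost under 5 of 18 alternatives, either 0 h array left out among them (adjusted p up to 0.179). Pard6b, a polarity gene also named after its values were seen, rose by 1.69 ± 0.26 at 3 h (adjusted p = 0.00194, held under all 18 alternatives) and by 1.12 ± 0.26 at 6 h (0.0102, and up to 0.0808 under the 3 alternatives that ended the call), and its change at 12 h was 0.05 ± 0.26. Claudin 11, the claudin that mouse Sertoli cells need for their tight junctions, was below the filter, with Cldn11 signals of 26.9 and 32.1 at 12 h, against 0.4 and 20 at 0 h.

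Of 10 other cadherin and catenin genes tested, 3 were lower at 12 h and none higher. Jup, which encodes plakoglobin, a close relative of beta-catenin, gave 222.8 and 249.5 at 12 h, against 444.5 and 472.9 at 0 h. It fell by 0.94 ± 0.17 (limma adjusted p = 0.00147) and by 0.69 ± 0.17 at 6 h (adjusted p = 0.0147), and the 6 h call was lost on dropping either 0 h array or the first 6 h array (adjusted p up to 0.104). The others were Ajuba (-0.91), a LIM protein of adherens junctions, and Ctnnal1 (-0.75), an alpha-catenin relative, both named after their values were seen. The call of Ctnnal1 was lost under 4 of 18 alternatives, either 0 h array and the first 12 h array left out among them (adjusted p up to 0.177). Cdh1, the E-cadherin gene, was below the filter, at 14.3 ± 4.67 at 12 h and 8.05 ± 1.77 at 0 h (SD, n = 2 each).

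Of 8 other nectin, nectin-like and afadin genes tested, 1 was higher and 2 were lower at 12 h. Cadm3, a nectin-like adhesion gene, gave 57.2 and 63.0 at 12 h, against 6.7 and 14.8 at 0 h. It rose by 1.90 ± 0.48 (limma adjusted p = 0.00965), a call lost without replicate 1 at 0 h (0.0625). At 0 h it was near the offset of 7.9, and it passed the filter through the exposed arrays, where it was high, so the size of this change is uncertain. Named after their values were seen, Cadm4 (-0.63) and the afadin-binding gene Ssx2ip (-0.61) were lower. The call of Cadm4 was lost on dropping the second 0 h array (adjusted p = 0.0771), and that of Ssx2ip under 4 of 18 alternatives, either 0 h array and the second 12 h array left out among them (up to 0.147). Pvr, a nectin-like receptor gene also named after its values were seen, gave 924.0 and 915.4 at 3 h and 333.8 and 443.9 at 12 h, against 358.2 and 385.6 at 0 h. It rose by 1.29 ± 0.17 at 3 h (adjusted p = 0.00055), and its 12 h arrays overlapped the 0 h range on both sides. Of 4 other connexin and pannexin genes tested, 1 was lower at 12 h: Gjc1, the connexin 45 gene, at -0.69, named after its value was seen and lost on dropping the second 0 h or the first 12 h array (adjusted p up to 0.0785). All 9 desmosome genes on the array were below the filter.

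Of 18 genes of the ectoplasmic specialization and junction actin tested, 2 were higher and 7 lower at 12 h, with a median change of -0.27. Plec, which encodes the cytoskeletal linker plectin, gave 776.9 and 596.4 at 12 h, against 2007.7 and 1908.8 at 0 h. It fell by 1.51 ± 0.15 at 12 h (limma adjusted p = 1.79e-05) and by 1.06 ± 0.15 at 6 h. Fscn1, which encodes the actin-bundling protein fascin, gave 2537.8 and 2087.9 at 12 h, against 5549.5 and 5681.8 at 0 h, and fell by 1.28 ± 0.12 (adjusted p = 1.46e-05). In both genes the 12 h arrays lay far below the 0 h arrays, and their calls at 6 h and 12 h held under all 18 alternatives run. Named after their values were seen, Myo7a (-0.83), Wasl (-0.70), Msn (-0.42) and Vasp (-0.43) were also lower at 12 h. The call of Myo7a held, and those of Wasl, Msn and Vasp were lost under 3, 4 and 8 of 18 alternatives. The genes called higher were Eps8 (0.46) and Rai14 (0.50), lost under 2 and 1 of 18 alternatives. Tes, which encodes the focal adhesion protein testin, fell by 0.35 ± 0.12 at 12 h (adjusted p = 0.0444), a call lost under 7 of 18 alternatives, among them without either 0 h array (adjusted p up to 0.191).

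Of 22 junction kinases, GTPases and cytokine regulators tested, 2 were higher and 6 lower at 12 h. Tgfb3, the transforming growth factor known to open the barrier in rat Sertoli cells, gave 38.7 and 64.3 at 12 h, against 141.4 and 167.2 at 0 h. It fell by 1.48 ± 0.33 (limma adjusted p = 0.00476; 0.0522 without replicate 2 at 0 h). Its receptor gene Tgfbr1 fell by 0.76 ± 0.18 (adjusted p = 0.00655; up to 0.0538 on dropping the second 0 h or the first 12 h array). Itch, a ubiquitin ligase gene, rose by 0.59 ± 0.14 (adjusted p = 0.00593; 0.0509 without replicate 1 at 0 h). Of 11 genes of the beta-catenin destruction complex and Wnt output, 2 were higher and 2 lower at 12 h. These shares of 18.2% each were near the 19.1% and 16.2% of all genes, and Wnt signalling was not tested. The kinase genes Gsk3b (0.98 ± 0.18) and Csnk1a1 (0.59 ± 0.12), which mark beta-catenin for breakdown, rose, and, named after their values were seen, the Wnt target genes Axin2 (-1.56 ± 0.29) and Ccnd1 (-1.04 ± 0.14) were lower.

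Of 8 genes for transcription factors that repress junction genes, 2 were higher and 2 lower at 12 h. Snai2, which encodes Slug, gave 159.9 and 137.9 at 0 h, 413.0 and 531.5 at 3 h, 615.7 and 629.8 at 6 h, and 287.3 and 602.6 at 12 h. All 6 exposed arrays lay above both 0 h arrays, and the 12 h arrays were far apart. Snai2 rose by 1.61 ± 0.27 at 3 h, 2.01 ± 0.27 at 6 h and 1.44 ± 0.27 at 12 h (limma adjusted p = 0.00328, 0.000327 and 0.00157). Zeb1 rose by 0.55 ± 0.13 at 3 h, 0.86 ± 0.13 at 6 h and 0.56 ± 0.13 at 12 h (adjusted p = 0.0219, 0.000704 and 0.00584). The 3 h call of Zeb1 was lost without any 1 of the 0 h or 3 h arrays and after scaling to a common median, and its 12 h call without replicate 2 at 0 h (0.0566). The E-box shown above for F11r and Nectin2 is the letter pattern such factors bind. Ctnnd1 and Nectin3, also called lower at 12 h, held no E-box, and Cdh2 had no promoter entry. No binding was measured, and a link between these factors and the junction genes was not tested. Tcf3 (-0.67) and Tcf4 (-0.78), named after their values were seen, were lower.

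**Figure D3:**
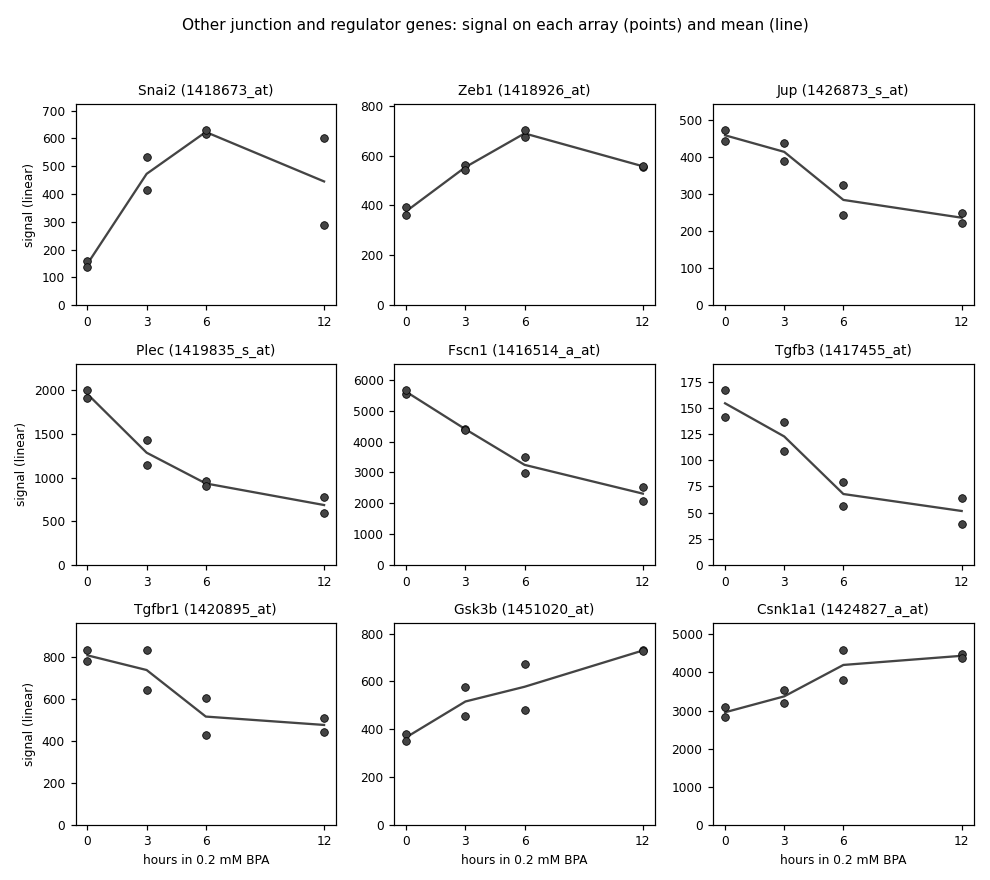
Deposited signal (linear, y axis from 0) against hours in 0.2 mM BPA for 9 genes named from the other junction lists; points are single arrays and lines join the means of 2 arrays. Plec, Fscn1 and Tgfb3 end below their 0 h arrays, Snai2 and Zeb1 have their highest mean at 6 h, and the 12 h arrays of Snai2 stand at 287.3 and 602.6.

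**Figure D4:**
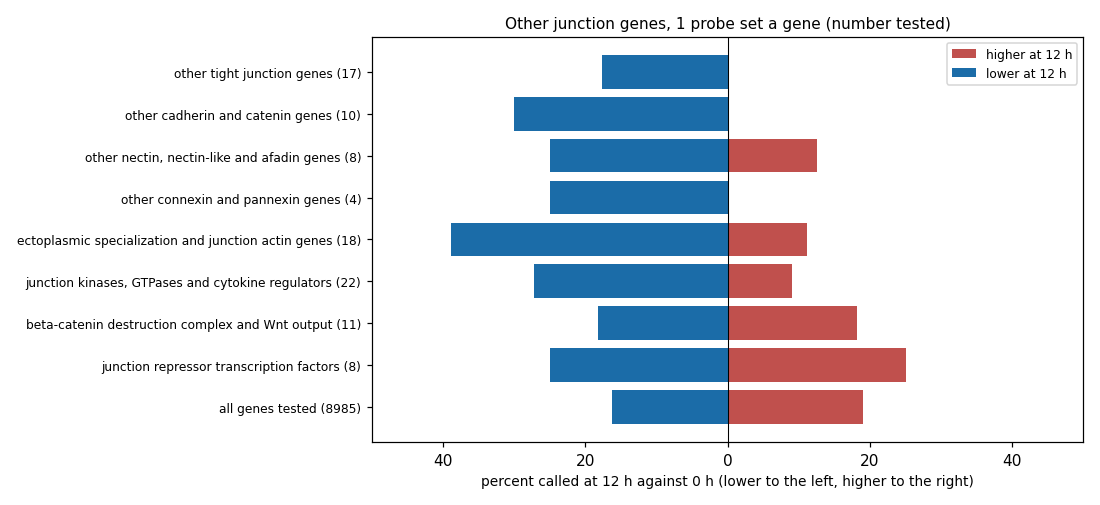
Percent of tested genes called lower (left, blue) or higher (right, red) at 12 h against 0 h in 8 lists of other junction genes, with the number tested in brackets and all 8985 genes in the last bar. The ectoplasmic specialization and actin list has 7 of 18 genes lower and 2 higher, beside 16.2% and 19.1% of all genes. Among the lower genes, the calls of Wasl, Msn, Vasp and Tes were lost under some alternatives.

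The genes closest to Tjp1 and F11r in their 3 changes against 0 h, by Euclidean distance on the log2 scale over the 4 times, are given as a description. For Tjp1 they were Exosc1 (distance 0.0135), Dlat (0.035), Plcb3 (0.0358) and Use1 (0.0377). For F11r they were Socs5 (0.0664), Cnot6l (0.0685), Gata6 (0.0698) and Marcks (0.0751). F11r and its neighbour Gata6, a transcription factor gene, had changes at 12 h of -1.18 and -1.12.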

How the data were processed

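RNA of 8 TTE3 samples was hybridised to Affymetrix 430A arrays. The deposited values are intensities, 1 signal per probe set on a linear scale; which software summarised them is not given in the sources used here. Judged by the values, the authors had scaled each array to 1 trimmed mean (2% left out at each end). The number of arrays limits the precision. From the deposited intensities log2(signal + 7.9) was computed. Of 22626 probe sets other than controls, 6788 with a mean log2 signal at or below the 30th percentile were left out. limma 3.58.1 in R 4.3.3 fitted 1 mean per time over all 8 arrays (lmFit, eBayes with an intensity trend, residual df 4, prior df 7.82). All tests were two-sided, with Benjamini-Hochberg adjustment over all probe sets tested.

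Of the 22626 probe sets other than controls, 20380 had 1 gene symbol in the platform annotation, 691 several and 1555 none. For 20351 of the 20380 the Entrez ID was found in RefSeq (GRCm38.p6), and the RefSeq symbol was used, whether or not it differed. RefSeq was the source of the promoters too. Members, lists and tests were chosen with earlier results of these data known. Every junction probe set is given. From each other list the genes called in 1 direction at both 6 h and 12 h were named, up to 4, on the probe set with the highest mean signal. Alternatives changed the offset, filter, scaling, trend, samples fitted and summary per gene, added a replicate block or left out 1 array.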

Additional observations from a re-analysis of the deposited data

Results flagged for a closer look

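For 2 junction probe sets the change at 12 h differed from that at 6 h, by a test of 12 h against 6 h. F11r (1424595_at) gave 1956.2 and 1660.4 at 12 h, against 3069.0 and 2729.9 at 6 h, a difference of -0.68 ± 0.12 (limma adjusted p = 0.0126). The call was lost without the intensity trend (adjusted p = 0.106), with only those times in the fit (0.0671), when replicate 1 at 6 h (0.0529) was dropped, when replicate 2 at 12 h (0.0721) was dropped, and with the mean of both F11r probe sets (-0.43, 0.387). Nectin2 (1424456_at) gave 299.2 and 256.8 at 12 h, against 495.4 and 444.4 at 6 h, a difference of -0.74 ± 0.15 (limma adjusted p = 0.0234). It was lost without the trend (0.0952), with only those times (0.0984), and on dropping the second 0 h array (0.0505), the first 6 h array (0.0965) or either 12 h array (0.056 and 0.0994). The other probe sets of these genes, 1436374_x_at of F11r and 1417703_at of Nectin2, were not called (-0.18 and -0.35, limma adjusted p = 0.918 and 0.218). Over all probe sets tested 2.97% were called in this comparison.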

How the results depend on the processing

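Of 110 junction results tested, 14 were called, and 4 of these held under all alternatives run: the 12 h falls of F11r (1424595_at), Ctnnd1 and both Nectin2 probe sets. None reversed with a call. Of 96 not called, 17 passed under some alternative and 48 changed sign without a call. Junction calls at 3 h numbered 3 with arrays scaled to the same median, 3 with only the times compared in the fit, 1 with a replicate block and 1 with 1 probe set per gene, against 0 as reported. At 6 h they numbered 2 without a filter and 1 without the intensity trend, against 5. At 12 h against 6 h they numbered 0 without the trend and 0 with only those times, against 2. Leaving out 1 array gave 0 to 2 at 3 h, 1 to 6 at 6 h, 4 to 9 at 12 h, 0 to 2 at 12 h against 6 h, and 3 to 7 at any time.

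Over all probe sets, without the trend 670 were called at 3 h (1390 as reported), 0 at 6 h against 3 h (154), 62 at 12 h against 6 h (471) and 3083 at any time (4638). With 1 probe set per gene the calls were 2299 at 6 h (3457), 3331 at 12 h (5293) and 97 at 6 h against 3 h. With only the times compared they were 90 at 6 h against 3 h and 127 at 12 h against 6 h. Leaving out 1 array gave 508 to 1738 at 3 h, 1816 to 3483 at 6 h, 3468 to 5725 at 12 h, 24 to 194 at 6 h against 3 h, 174 to 464 at 12 h against 6 h, and 2764 to 5331 at any time. The cause of these shifts was not tested.

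The labels do not say whether arrays with the same replicate number were handled together. Deviations of same-numbered arrays correlated at 0.007 to 0.119, over 0.1 in 1 of 6 pairs. Whether they share a batch was not tested. The replicate block gave 1, 6 and 8 junction calls at 3, 6 and 12 h, passing Cdh2 (1418815_at) at 3 h (adjusted p = 0.0228) and Gja1 (1415800_at) at 6 h (0.0308) and 12 h (0.0321), and 772 calls over all probe sets at 12 h against 6 h. With 2 arrays per time the fit's spread is pooled, and dim probe sets such as that of Ocln were left out by the filter.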
